A study of Bos taurus with 34 samples.

Results

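Described here are 3 mature miRNAs of the miR-191 and miR-425 locus of the cow. They are bta-miR-191, bta-miR-425-5p and bta-miR-425-3p, and all 3 were counted in every library. The locus also has a row for miR-191b, annotated inside MIR191, which is not among the 3 members and is described at the end. The 3 names were chosen by earlier results of these same data, in which miR-425-3p separated cows with subclinical endometritis (SCE) from healthy cows. Differences between statuses are therefore given as a description, without p-values. The count files hold 800 miRNA names, of which 794 had a count in at least 1 library, and the 3 members are 3 of these.

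Cell-free small RNA was sequenced from the blood of 17 dairy cows (Bos taurus) after calving, 6 labelled healthy and 11 labelled SCE, a status assigned from endometrial cytology and biopsy. Each cow was to be sampled at both times, labelled day 25 and day 45 of sampling (21 and 44 days after calving in the design text). The tissue is serum in the labels and plasma in the design text, and no treatment, breed or age is given. The day-25 file of healthy cow 3 held the same values as its day-45 file and was left out, which leaves 5 healthy libraries at day 25, 6 healthy libraries at day 45 and 11 SCE libraries at each day. Total counts per library ran from 678389 to 28872153. Healthy and SCE titles carry separate runs of numbers, so if these numbers follow the order of preparation, order and status cannot be told apart. Within SCE cows the level of miR-425-3p mostly rose with cow number, as given below.

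A microRNA is cut from a hairpin precursor, and either strand of the trimmed duplex can be loaded into an Argonaute protein. The 2 strands are named 5p and 3p for the arm of the hairpin they come from, and usually one of them is retained far more than the other. In mammals miR-191 and miR-425 lie side by side and are made from a shared primary transcript, and miR-425-5p is the arm usually retained. miR-191 is abundant in blood and has been used as a reference miRNA in plasma and serum studies. In the RefSeq table for assembly ARS-UCD2.0, MIR191 and MIR425 are neighbours, with MIR191B annotated inside MIR191. The next protein-coding genes in the order of that table are NDUFAF3, a mitochondrial complex I assembly factor, before them and DALRD3 after them. That order does not show whether either gene spans the hairpins.

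The locus gave 1 of the most abundant miRNAs of the libraries and 1 of modest abundance. By count, miR-191 stood between the 1st and the 4th place in every library and miR-425-5p between the 37th and the 89th place. miR-425-3p stood between the 91st and the 200th place, with raw counts from 58 to 4426. Across the 4 groups, the median share of miR-191 was 7.87% of counts in healthy cows at day 25, 10.0% in the healthy group of day 45, 13.3% in the SCE group of day 25 and 11.99% in that of day 45. Levels below are CPM (counts scaled to a common library total), adjusted by the trimmed mean of M-values (TMM), which reduces the weight of miRNAs that fill much of a library. On that scale the order of the 4 medians of miR-191 is no longer the same as by share.

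miR-191, the most abundant product of the locus, overlapped broadly between statuses. In healthy cows 1, 2, 4, 5 and 6 at day 25 its level was 67906, 108605, 289366, 52662 and 484006 CPM. In healthy cows at day 45 it ran from 90830 to 294928 CPM with a median of 134862. Healthy cows 4 and 6 stood above the other healthy cows at day 25. In SCE cows at day 25 miR-191 ran from 40512 to 169404 CPM with a median of 102841. In SCE cows at day 45 it ran from 33677 to 424046 CPM with a median of 100926. No SCE cow at day 25 and 1 of 11 at day 45 lay above every healthy cow, and 1 and 4 of 11 lay below every healthy cow.

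miR-425-5p, the arm usually retained, also overlapped between statuses. Its level in healthy cows 1, 2, 4, 5 and 6 at day 25 was 1346, 760, 400, 965 and 812 CPM. Healthy cows at day 45 ran from 248 to 1278 CPM with a median of 1066. Cows 1 and 4 were the highest and the lowest of the healthy cows at day 25. SCE cows ran from 662 to 1710 CPM with a median of 1364 at day 25. SCE cows at day 45 ran from 296 to 2072 CPM with a median of 994. Above every healthy cow lay 6 of 11 SCE cows at day 25 and 1 of 11 at day 45, and none lay below every healthy cow at either day.

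miR-425-3p, the opposite arm of the same hairpin, was the member that separated the groups. In healthy cows 1, 2, 4, 5 and 6 at day 25 its level was 26.0, 19.0, 38.9, 32.4 and 38.3 CPM. In healthy cows 1 to 6 at day 45 it was 23.8, 16.8, 9.23, 41.0, 57.0 and 50.8 CPM. Healthy cow 3 was the lowest and healthy cow 5 the highest of these libraries. SCE cows at day 25 ran from 45.7 to 274 CPM with a median of 122. SCE cows at day 45 ran from 18.4 to 234 CPM with a median of 83.2. At day 25 the groups did not overlap, and at day 45 SCE cow 8, the lowest, lay within the healthy range while the other 10 lay above it. Every SCE cow lying above every healthy cow occurred for 0.269% of the 372 miRNAs tested at day 25, which is miR-425-3p alone, and for 0% of 382 at day 45. These are the values by which the member was chosen, so nothing is read from these shares.

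**Figure D1:**
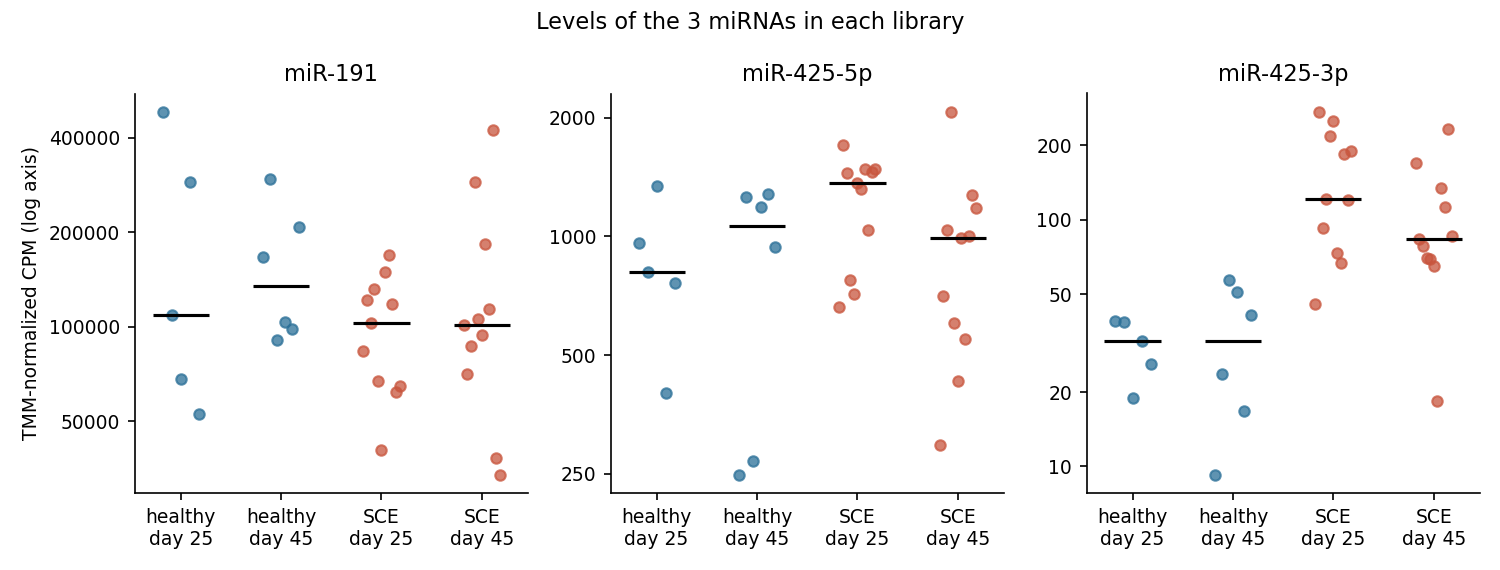
Level of each of the 3 miRNAs in each library, in TMM-normalized CPM on log axes, by status and day. Points are libraries (5, 6, 11 and 11) and bars are medians. miR-425-3p lies between 9.23 and 57.0 CPM in healthy cows and between 18.4 and 274 CPM in SCE cows, while the groups of miR-191 and miR-425-5p overlap.

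Ordered by mean log2 CPM, miR-425-3p ran from SCE at day 25 (7.01) through SCE at day 45 (6.43) and healthy at day 25 (4.91) to healthy at day 45 (4.79). Only the step between SCE at day 45 and healthy at day 25, 1.52 on the log2 scale, exceeded the pooled SD of the neighbouring groups, which was 0.83. For miR-425-5p the order was SCE at day 25, SCE at day 45, healthy at day 25 and healthy at day 45, and no step exceeded its pooled SD. For miR-191 it was healthy at day 45, healthy at day 25, SCE at day 45 and SCE at day 25, again with every step within the pooled SD.

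The edgeR fit gave miR-425-3p a log2 fold change (SCE minus healthy) of 2.23 at day 25 (SE 0.46, 95% interval 1.26 to 3.19), a fold of 4.68. At day 45 it was 1.68 (SE 0.49, 0.68 to 2.69), a fold of 3.21. With the counts of both days summed per cow it was 2.06 (SE 0.43, 1.16 to 2.95), a fold of 4.16. Healthy cow 3 entered this sum with its day-45 library alone, and the deeper library of a cow weighs more in it. The level of miR-425-3p summed over days mostly rose with cow number in SCE cows. In cows 7 to 12 it was 68.4, 47.1, 77.9, 73.1, 95.9 and 143 CPM. In cows 13 to 17 it was 117, 118, 227, 265 and 187 CPM. Healthy cows 1 to 3 had 9.28 to 25.2 CPM, and healthy cows 4 to 6 had 38.9 to 50.6 CPM. SCE cow 8 thus lay below healthy cow 6. The relation with number was not tested, and number and status cannot be told apart between the groups. By size of the fold change miR-425-3p stood 11th from the highest of 372 miRNAs at day 25, 9th of 382 at day 45 and 4th of 418 with days summed. Over all miRNAs tested, edgeR at an adjusted p of 0.05 called 1 at day 25 (0.269%), none at day 45 (0%) and 1 with days summed (0.239%). At day 45, 39 miRNAs had an unadjusted p under 0.05 and DESeq2 called 1. These counts are given as background only: the contrast chose the members, so a call on it is no test of them.

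Over all fits that left out 1 cow, log2 fold changes of miR-425-3p ran from 2.09 to 2.39 at day 25, from 1.47 to 2.01 at day 45 and from 1.90 to 2.23 with days summed.

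The 2 more abundant products of the locus had values nearer to 0 or of the opposite sign in these fits. For miR-425-5p the log2 fold change was 0.46 at day 25 (SE 0.35, -0.26 to 1.19), 0.17 at day 45 (SE 0.43, -0.72 to 1.05) and 0.33 with days summed (SE 0.33, -0.35 to 1.002). Without SCE cow 15 its value at day 45 was -0.03. For miR-191 the log2 fold change was -1.02 at day 25 (SE 0.45, -1.97 to -0.08), -0.14 at day 45 (SE 0.49, -1.16 to 0.87) and -0.26 with days summed (SE 0.37, -1.01 to 0.50). The value at day 25 was -0.42 without healthy cow 6, the healthy library with the highest miR-191, and -0.38 with libraries scaled to their totals without miR-486. At day 45 the value was 0.05 under that scaling and 0.17 with log2 of miR-486 over miR-23a added to the fit, so its sign is not fixed. The median log2 fold change of all tested miRNAs was -0.05 at day 25 and 0.11 at day 45, and 0.24 and 0.39 under that scaling, so relative to the median miRNA miR-191 was lower at both days under either scaling.

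**Figure D2:**
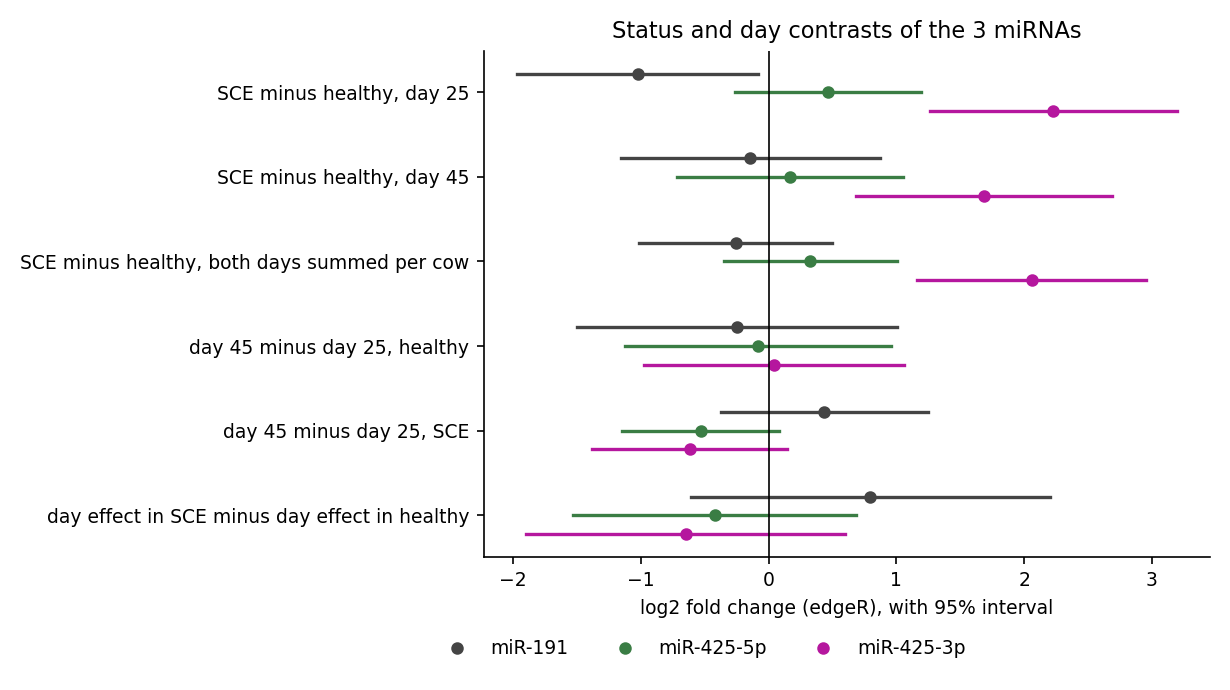
Log2 fold changes from edgeR (x axis) with 95% intervals for the 3 miRNAs in the 3 status contrasts and the 3 day contrasts (y axis). miR-425-3p lies at 2.23, 1.68 and 2.06 in the status contrasts, and every interval of the day contrasts spans 0.

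The day of sampling was not used to choose the members and was tested. The edgeR fits of day, and of the difference between day effects, did not pair the 2 libraries of a cow. Fits paired by cow (the replicate block) are given with the alternatives below. In healthy cows the log2 fold change (day 45 minus day 25) was -0.25 for miR-191 (SE 0.60), -0.08 for miR-425-5p (SE 0.50) and 0.04 for miR-425-3p (SE 0.49), all with an edgeR adjusted p of 0.9999. In SCE cows it was 0.44 for miR-191 (SE 0.40, -0.38 to 1.25, adjusted p = 0.846). miR-425-5p stood at -0.53 (SE 0.30, -1.14 to 0.08, edgeR adjusted p = 0.705) and miR-425-3p at -0.62 (SE 0.37, -1.38 to 0.15, edgeR adjusted p = 0.705). None of the 3 members passed in either status.

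The background of these contrasts was equally empty. edgeR called 0% of 345 miRNAs in healthy cows and 0% of 346 in SCE cows, with 10 and 14 at an unadjusted p under 0.05, and DESeq2 called none in either. The difference between the day effects (SCE minus healthy) was 0.80 for miR-191 (SE 0.69), -0.42 for miR-425-5p (SE 0.55) and -0.65 for miR-425-3p (SE 0.62), each with an edgeR adjusted p of 0.988. Of 406 miRNAs 0% were called for it by edgeR, 7 had an unadjusted p under 0.05 and DESeq2 called none. The intervals are wide: for miR-425-3p the day effect in SCE cows could lie anywhere from a fold of 0.384 to a fold of 1.11.

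Ratios between the members of 1 library do not depend on how libraries are scaled. The arm ratio, miR-425-5p over miR-425-3p with 0.5 added to each count, was 51.5, 40.0, 10.3, 29.8 and 21.1 in healthy cows 1, 2, 4, 5 and 6 at day 25. At day 45 it ran from 16.0 to 53.7 in healthy cows, with a median of 23.8. Healthy cow 4 at day 25 and healthy cow 2 at day 45 had the lowest ratios of their groups, and healthy cow 1 the highest at both days. In SCE cows the ratio ran from 3.86 to 32.3 at day 25 with a median of 8.55, and from 4.15 to 16.8 at day 45 with a median of 9.28. The 5p arm exceeded the 3p arm in all 33 libraries, by a smaller factor in most SCE cows.

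The mean log2 arm ratio was 4.73 in healthy and 3.18 in SCE cows at day 25, a difference (SCE minus healthy) of -1.55, and 4.67 and 3.23 at day 45, a difference of -1.44. Below every healthy cow lay 7 of 11 SCE cows at day 25 and 9 of 11 at day 45. Because the 3p level chose the member, this difference is part of the same description and is not tested.

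**Figure D3:**
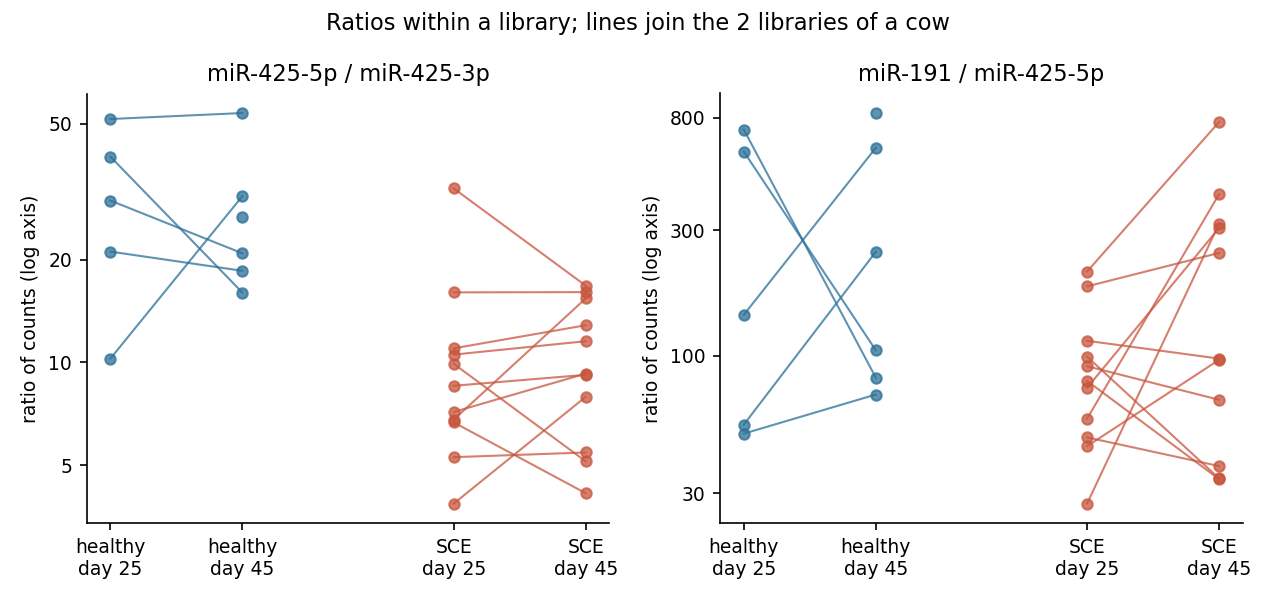
Ratio of miR-425-5p to miR-425-3p (left) and of miR-191 to miR-425-5p (right) in each library on log axes, by status and day, with lines joining the libraries of a cow. Healthy libraries have arm ratios of 10.3 to 53.7 and SCE libraries of 3.86 to 32.3, and the lines cross without a common direction.

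Between the days the arm ratio showed no change that passed a test. The mean log2 change (day 45 minus day 25) was 0.05 ± 0.70 (SD, n = 11 SCE cows), with a rise in 8 and a fall in 3 (exact sign-change permutation p = 0.838, two-sided, adjusted p = 0.875 over 9 ratio tests). In healthy cows it was -0.08 ± 1.06 (SD, n = 5, exact permutation p = 0.875, where 5 cows can give no p below 0.0625).

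The ratio of miR-191 to miR-425-5p, products of neighbouring hairpins, varied more than the arm ratio. It ran from 50.5 to 723 (day 25) and from 71.1 to 835 (day 45) in healthy cows. SCE cows had ratios of 27.3 to 208 at day 25 and of 33.9 to 772 at day 45. Groups overlapped at both days, with mean log2 differences (SCE minus healthy) of -1.14 and -0.65. In SCE cow 8 the ratio was 27.3 at day 25 and 317 at day 45, whereas in healthy cow 4 it was 723 at day 25 and 82.4 at day 45. Over the 11 SCE cows the mean log2 change between days was 0.73 ± 1.67 (SD), with 6 rises and 5 falls (exact permutation p = 0.183, adjusted p = 0.822).

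Among SCE cows the 3 members did not move together in a way that passed a test, over 9 correlations of log2 CPM. miR-191 and miR-425-5p had Pearson r = -0.18 at day 25 (permutation p = 0.592, Spearman rho = -0.12, p = 0.733) and r = -0.39 at day 45 (p = 0.240, rho = -0.41, p = 0.213, permutation test). Without the 2 cows farthest from the median of miR-191, r was -0.28 and -0.31. The arms of miR-425 had r = 0.35 at day 25 (permutation p = 0.291, rho = 0.31, p = 0.358) and r = 0.69 at day 45 (p = 0.0189, adjusted p = 0.170, rho = 0.64, p = 0.0396, adjusted p = 0.319, permutation test). Without the 2 farthest cows the latter was 0.43. miR-191 and miR-425-3p had r = 0.57 at day 25 (permutation p = 0.0666, adjusted p = 0.300, rho = 0.57, p = 0.0710) and r = 0.02 at day 45 (p = 0.953, rho = -0.27, p = 0.419). A cow's own level at day 25 had r = 0.35 with that at day 45 for miR-191, 0.37 for miR-425-5p and 0.50 for miR-425-3p, with adjusted permutation p from 0.329 to 0.375.

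The miRNAs with the most similar pattern to each member were not the other members. Similarity was Pearson r of log2 CPM over the 33 libraries after subtracting group means, given as a description because the points share library composition and depth. For miR-191 the nearest of 406 miRNAs were miR-10a (0.84), miR-151-3p (0.82), miR-2285k (0.77), miR-191b (0.70) and miR-2285cj (0.69), while miR-425-5p stood 317th (-0.36) and miR-425-3p 110th (0.17). For miR-425-5p they were miR-2316, miR-128 and miR-186 (0.81 each), miR-2483-5p (0.80) and miR-2403 (0.78), with miR-425-3p 41st (0.57). For miR-425-3p they were miR-151-5p (0.78), miR-30b-5p (0.77), miR-2465 (0.74), miR-2483-5p (0.73) and miR-186 (0.71), with miR-425-5p 33rd. The opposite arms of miR-151 thus fell on the lists of different members, the 3p arm with miR-191 and the 5p arm with miR-425-3p. Without subtracting group means, 3 of the 5 nearest were kept for miR-425-3p, 4 for miR-191 and 5 for miR-425-5p.

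Hairpins other than miR-425 also differed in arm ratio between statuses. Names ending in 5p and 3p gave 29 hairpins at day 25 and 28 at day 45 of which both arms passed the filter on low counts. In 13 of the 29 and 15 of the 28 an arm had no count in at least 1 library, where the 0.5 added to each count sets the ratio. The lowest count of an arm of miR-425 was 98 at day 25 and 58 at day 45. Over all hairpins, 20 of 29 had a lower log2 arm ratio in SCE cows at day 25, the median difference was -0.48, and miR-425 stood 8th from the lowest.

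The place of miR-425 depended on those hairpins. Differences at least as large in either direction, miR-425 included, were found in 11 of all 29 hairpins at day 25 and 11 of all 28 at day 45. Among the 16 hairpins of day 25 with counts of both arms in every library, a set formed after the values had been seen, they were found in 3, and miR-425 had the lowest value beside a median of -0.38. Among the 13 such hairpins of day 45 they were found in 2, and miR-425 was 2nd from the lowest beside a median of -0.50.

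Over all hairpins the lowest differences at day 25 were those of miR-99a (-3.75), miR-2299 (-3.62) and miR-29d (-2.14), each with an arm at 0 in 2 libraries. The highest were those of miR-151 (2.22), miR-345 (2.04) and miR-2431 (1.55), the last with an arm at 0 in 4 libraries. At day 45 miR-425 again stood 8th, beside a median of -0.53. Every SCE cow lay below every healthy cow for 0% of hairpins at both days. Every SCE cow lay above every healthy cow for 0% at day 25 and for 3.57% at day 45, which is miR-296 (2.45, an arm at 0 in 1 library).

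**Figure D4:**
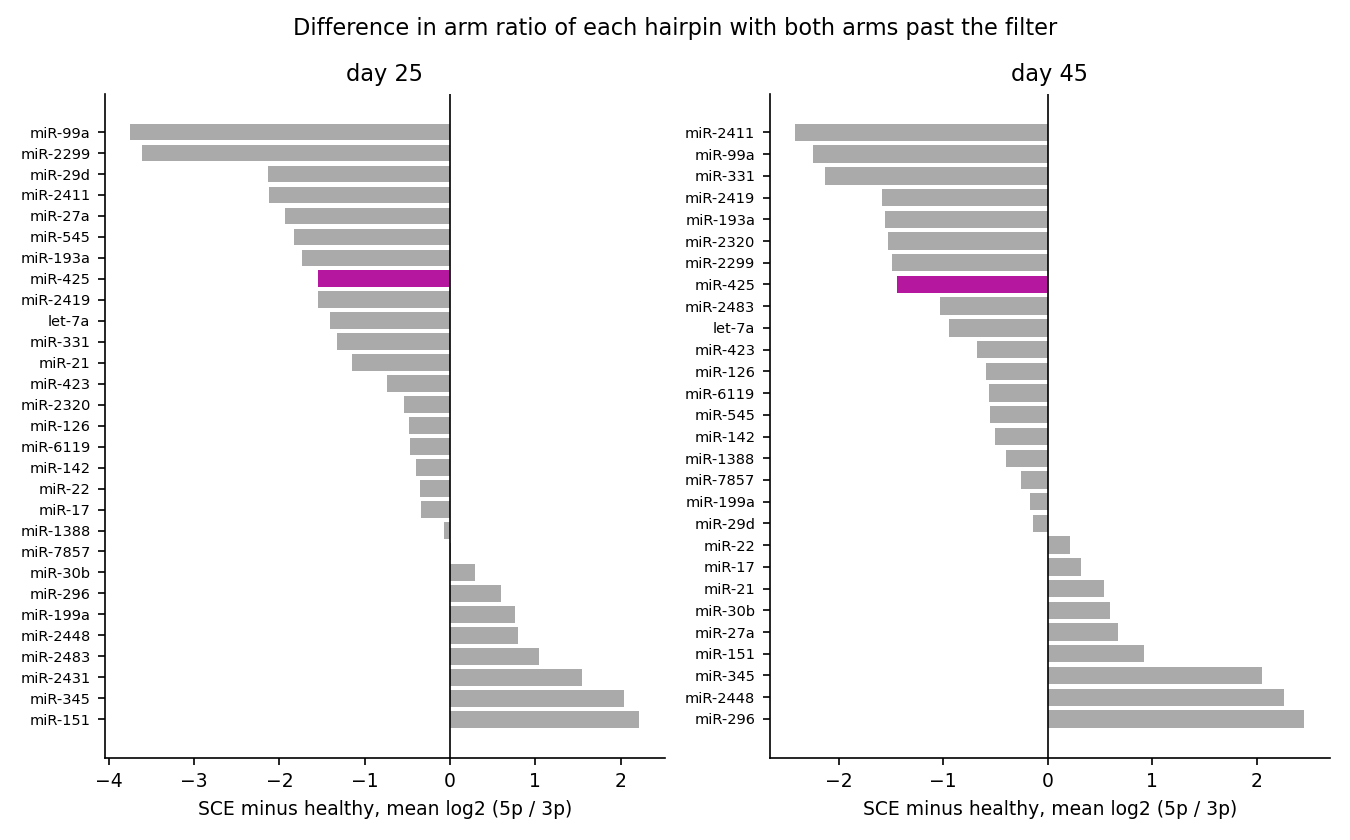
Difference between SCE and healthy cows in mean log2 ratio of the 5p to the 3p arm (x axis) for each hairpin with both arms past the filter on low counts, at day 25 (29 hairpins) and day 45 (28 hairpins). The bar of miR-425, in magenta, is 8th from the lowest on both days, at -1.55 and -1.44, and 13 and 15 of the hairpins have an arm at 0 in at least 1 library.

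Red blood cell miRNAs took a lower median share of counts in SCE cows, in which miR-425-3p was higher. A list of 12 of them, among them miR-486, miR-451 and miR-144, took 26.4% to 83.9% of counts in healthy cows at day 25 (median 48.6%) and 6.10% to 80.9% in SCE cows (median 14.5%). At day 45 it took 17.3% to 74.7% in healthy cows (median 50.4%) and 6.31% to 58.6% in SCE cows (median 39.9%). At both days 7 of the 11 tested members were lower and 4 higher in SCE cows, none called, and no member was at 0 in any group. These shares are mostly miR-486, with medians of 45.3% in healthy and 10.8% in SCE cows at day 25, and its log2 fold changes were -1.54 at day 25 and -1.37 at day 45. The share of miR-451 did not follow that order, with medians of 0.387% in healthy and 0.498% in SCE cows at day 25 and of 0.465% and 0.472% at day 45, and its log2 fold changes were -0.44 and -0.27.

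With log2 of miR-486 over miR-23a added to the fit, the log2 fold change of miR-425-3p was 1.20 at day 25, 1.34 at day 45 and 1.19 with days summed. With miR-451 in place of miR-486 it was 1.84, 1.75 and 1.86. miR-23a, the denominator of both covariates, was itself higher in SCE cows. Its mean log2 CPM was 9.47 in healthy and 10.18 in SCE cows at day 25, and 9.31 and 9.89 at day 45. The covariates are therefore no measure of red blood cells alone, and the 2 parts of each ratio were not tested apart. In serum or plasma, a different share of material from a cell type and a different amount of RNA released per cell cannot be told apart.

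The arm ratio of miR-425 followed miR-486 within the SCE cows of day 25. This relation was examined after the values had been seen, as 1 of 4 correlations. Over the 11 SCE cows the log2 arm ratio and log2 CPM of miR-486 had Pearson r = 0.87 (permutation p = 0.00035, adjusted p = 0.0014) and Spearman rho = 0.85 (permutation p = 0.00137, adjusted p = 0.00548). Without the 2 cows farthest from the median of miR-486, r was 0.71, and with miR-451 in its place r was 0.78. Among the 6 SCE cows with miR-486 under 15% of counts, r was 0.74 (exact permutation p = 0.0861), and the other 5 were too few for a value. SCE cows 7 to 12 had arm ratios of 32.3, 16.0, 10.5, 9.91, 11.0 and 7.17, and cows 13 to 17 of 8.55, 3.86, 6.80, 5.29 and 6.68. Their miR-486 took 79.0%, 49.4%, 27.8%, 43.4%, 10.8% and 6.26%, then 41.8%, 4.001%, 8.72%, 4.06% and 4.04% of counts. Both thus mostly fell with cow number. Relations with miR-486 and with number cannot be told apart here, and that with number was not tested. Healthy cows were not tested. At day 25 healthy cow 1 had the highest miR-486 (81.1% of counts) and arm ratio (51.5) of them, and healthy cow 4 the lowest (24.8% and 10.3). Cows 2, 5 and 6 lay between, in a different order for each. At day 45 healthy cow 2 had the highest miR-486 (73.0%) and the lowest ratio (16.0).

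Over the 33 libraries, after subtracting group means and as a description, log2 CPM of miR-486 had r = -0.55 with miR-425-3p, in place 396 of 406, and r = -0.08 with miR-425-5p. Without subtracting group means these were -0.71 and -0.24.

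At day 45 the relation of the arm ratio with miR-486 was not found in SCE cows, with r = 0.09 (permutation p = 0.787) and rho = 0.17 (p = 0.614), and the difference between days was not tested. The ratio of miR-191 to miR-425-5p had r = -0.28 with miR-486 at day 25 (permutation p = 0.410, rho = -0.34, p = 0.315) and 0.44 at day 45 (p = 0.174, rho = 0.22, p = 0.520).

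**Figure D5:**
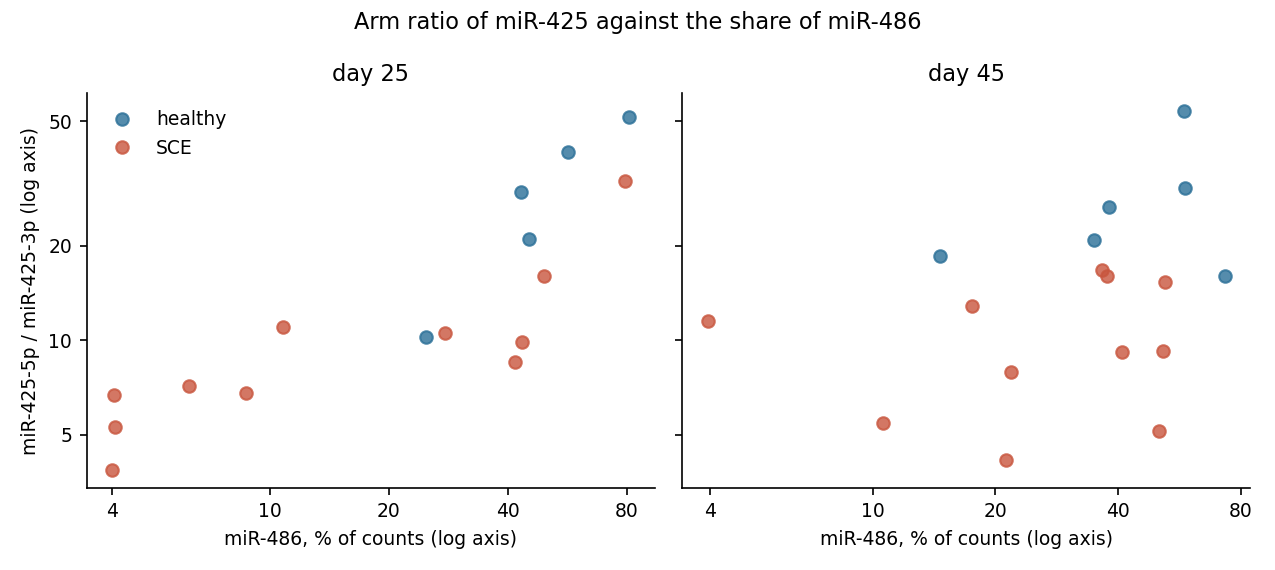
Ratio of miR-425-5p to miR-425-3p (y axis, log) against the share of counts taken by miR-486 (x axis, percent, log) in each library at day 25 and day 45, coloured by status. At day 25 the SCE points rise from ratios near 3.86 to 32.3 as miR-486 rises from 4.001% to 79.0% of counts, and at day 45 they do not follow a line.

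In the white blood cell lists more members were higher than lower in SCE cows. At day 45 the median over all miRNAs tested was itself above 0. Nearest to 0 at day 25 were miR-181b and miR-155 of the lymphocyte list and miR-223 and miR-142-5p of the neutrophil and monocyte list. Farthest were miR-29b and miR-29c of the former and miR-23a and miR-27a-3p of the latter. Of 10 lymphocyte miRNAs, such as miR-150 and miR-155, 8 were higher in SCE cows at day 25 and 10 at day 45, with median log2 fold changes of 0.72 and 0.68, beside -0.05 and 0.11 over all tested, and none called. They took 0.313% to 1.70% of counts in healthy and 0.375% to 3.83% in SCE cows at day 25, and 0.333% to 1.94% and 0.720% to 2.73% at day 45. Of 8 neutrophil and monocyte miRNAs, 6 were higher at day 25 and 5 at day 45, with median log2 fold changes of 0.21 and 0.46 and none called. They had shares of 0.613% to 4.05% in healthy and 0.563% to 5.65% in SCE cows at day 25, and 0.934% to 3.92% and 2.10% to 5.53% at day 45. Platelet miRNAs were higher for 3 of 8 at each day. Their shares at day 25 were 0.450% to 15.6% in healthy (median 1.35%) and 0.483% to 5.09% in SCE cows (median 3.30%). At day 45 these were 1.15% to 7.69% (median 1.81%) and 1.25% to 14.6% (median 3.07%). Liver miRNAs were higher for 2 of 6 at day 25 and 5 of 6 at day 45. Their shares at day 25 were 0.914% to 7.29% in healthy (median 4.06%) and 1.31% to 10.5% in SCE cows (median 2.83%). At day 45 these were 1.34% to 7.73% (median 4.16%) and 1.44% to 16.8% (median 2.61%). None of the members of these lists was at 0 in any group, and their part in the level of miR-425-3p was not tested.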

How the data were processed

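Per the labels' protocols, the TruSeq Small RNA kit was used with an input of 10 to 20 ng and with 13 or 16 PCR cycles. The labels do not say which libraries had which number of cycles and mention no molecular identifiers. Counts may therefore include PCR copies. The values deposited by the authors are raw counts for each mature miRNA, in a file for each library. The submitters' processing notes name bcl2fastq 2.17.1.14, genome build UMD3.1 and DESeq2, while aligner, counter and annotation were not given in the sources used here.

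Of 34 libraries 33 were used. Counts were fitted with edgeR 4.0.16 in R 4.3.3 (filterByExpr, TMM, quasi-likelihood F test, two-sided, Benjamini-Hochberg adjustment over all miRNAs tested, threshold 0.05), within each day, within each status, with days summed per cow, and over 4 groups for the interaction. The script was tested on simulated counts of independent libraries, which do not copy the repeated sampling of cows in these data. SEs were taken from the F statistic. Levels are TMM CPM, in log2 with a prior count of 2. Ratios within a library used log2 with 0.5 added to each count, and correlations and the ratio interaction used 100000 resamples or exact enumeration. Cows are the replicates, and both libraries of a number come from the same animal: over 16 cows with both days, the deviations of a cow's 2 libraries from their group means had a median r of 0.25 (-0.25 to 0.81), above 0.1 in 11. Fold changes of low counts are uncertain, since miR-425-3p had only 58 counts in 1 library. DESeq2 1.42.0, other scalings, no filter, red blood cell covariates, the replicate block and leaving out each cow were alternatives.

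The members, the lists and the comparisons were chosen with earlier results of these data known. The miRNAs named are the 3 members, the 5 of nearest pattern to each, the 3 hairpins with the most different arm ratio in each direction at day 25, the 2 reference miRNAs nearest to and farthest from 0, miR-191b, and miR-486, miR-451 and miR-23a. miR-296 was named after its values were seen, as were miR-144, miR-150, miR-155 and miR-30e-5p as list examples. The 2 miRNAs nearest to and the 2 farthest from 0 at day 25 in each white blood cell list were also named afterwards. Hairpins were paired only by names ending in 5p and 3p, since the files do not say which names without an ending are arms.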

Additional observations from a re-analysis of the deposited data

How the results depend on the processing

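Between statuses, the log2 fold change of miR-425-3p ran over the alternatives from 1.20 (miR-486 covariate) to 2.56 at day 25, 1.34 to 2.01 at day 45 and 1.19 to 2.30 with days summed. At day 25, 1 of 22 alternatives, the miR-486 covariate, moved it by more than the SD within groups. The same contrast chose the member, so a sign kept in these fits is no test of it. The number of miRNAs called by edgeR at day 25, 1 in the fit described, was 4 with DESeq2 size factors, 8 with totals without miR-486, 6 without a filter, 2 with the miR-451 covariate and 14 with DESeq2, and 0 to 7 without 1 cow, the most without SCE cow 7. At day 45 it was 1 with DESeq2 and 1 with the miR-451 covariate. With days summed it was 22 with totals without miR-486, 15 with DESeq2, 2 without a filter, 0 with either covariate and 0 to 10 without 1 cow, the most again without SCE cow 7. The interaction gave 1 without a filter.

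Some values of the day contrasts and correlations changed sign, none past the threshold. In healthy cows, day 45 minus day 25 was -0.084 for miR-425-3p with DESeq2 size factors and -0.088 with DESeq2, and 0.037 for miR-425-5p in the paired fit with a replicate block. Without 1 cow these ranged from -0.81 to 0.29 for miR-191, -0.37 to 0.083 for miR-425-5p, -0.20 to 0.18 for miR-425-3p, -0.49 to 0.23 for the log2 arm ratio, -0.76 to 0.57 for miR-191 over miR-425-5p and -0.73 to 0.36 for miR-191 over miR-425-3p. In SCE cows the arm ratio ranged from -0.066 to 0.15, and the difference of the day effects from -0.19 to 0.54. With totals without miR-486, r of miR-191 with miR-425-3p at day 45 was -0.16, and r of miR-191 over miR-425-5p at day 45 was -0.51 with miR-451 against 0.44 with miR-486. The cause was not tested. In SCE cows the replicate block gave 0.12, -0.59 and -0.64 for miR-191, miR-425-5p and miR-425-3p and changed no call.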

Other observations

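miR-191 belongs to the miRNAs that have served as references in blood, and 24 other such miRNAs were set beside it. At day 25, 15 of the 24 were higher and 9 lower in SCE cows, none called by edgeR (0.269% of all 372 tested were called), with a median log2 fold change of 0.31 beside -0.05 over all tested. Nearest to 0 were miR-423-3p (0.03) and miR-16b (0.07), and farthest were miR-24 (2.24) and miR-345-5p (2.68). At day 45, 15 of 23 were higher and 8 lower, with a median of 0.17 beside 0.11. Within groups, log2 CPM had an SD of 0.95 for miR-191, 0.76 for miR-425-5p and 0.87 for miR-425-3p, beside a median of 1.13 over 406 miRNAs. Of the 24 reference miRNAs, 16 had a lower SD than miR-191, 10 a lower one than miR-425-5p and 13 a lower one than miR-425-3p. The lowest of the 24 was miR-30e-5p, at 0.39.

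miR-191b, annotated inside the MIR191 hairpin, has a row of its own. Its median was 311 CPM in healthy cows at day 25, 205 in the healthy group of day 45, 267 in the SCE group of day 25 and 202 in that of day 45. Its log2 fold change (SCE minus healthy) was -0.30 at day 25 (SE 0.34) and 0.10 at day 45 (SE 0.36). The labels do not say how reads that match both miR-191 and miR-191b were assigned, so their counts may not be separate.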
